A study of Mus musculus with 16 samples.

Results

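Nr5a2, Nfya, Nfyb and Nfyc are 4 transcription factor genes, taken by their symbols from the deposited tables of mouse hypothalamus RNA-seq. They were 4 of the 15983 genes in a table of CTRL, OLZ and OLZ+MINO libraries and 4 of the 16005 genes in a second table of CTRL and MINO libraries, or 4 of the 16196 genes in either. All 4 genes had values in every library. Nr5a2 and Nfyb were selected on measured values, since the study picked them, among other genes, from differences between these same OLZ, OLZ+MINO and CTRL libraries. It then singled them out because C. elegans mutants of their orthologs lost the rise in food intake under antipsychotics. Because of the first step, values of Nr5a2 and Nfyb in the OLZ, OLZ+MINO and CTRL groups are given as a description with no test. Nfya and Nfyc were added as the other subunits of the complex that Nfyb belongs to.

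The libraries came from 16 female C57BL6/J mice, 4 in each group, all fed for 12 weeks, starting at 10 weeks of age, a high fat diet that drew 45% of its kcal from fat. OLZ+MINO mice received olanzapine at 54 mg per kg of diet together with minocycline at 0.6 mg/mL in the drinking water. OLZ mice received the olanzapine diet alone, MINO mice received minocycline alone, and CTRL mice received the high fat diet with neither drug. Olanzapine is an antipsychotic that raises food intake and body weight, and minocycline is a tetracycline antibiotic that the study used as a co-treatment. No group on a low fat diet was analysed here, so that all values apply to mice on a high fat diet. Each library is total RNA of 1 dissected hypothalamus, which mixes neurons, glia and vessels. The values are read counts per gene that were scaled per library and rounded to whole numbers, and they are called scaled counts. Since the tables were scaled separately, groups were compared only within a table, and the same 4 CTRL mice serve in both.

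Nr5a2 encodes a nuclear receptor, also called liver receptor homolog, that binds DNA as a monomer. It is known for control of bile acid and cholesterol metabolism in liver, of steroid production in the ovary and of digestive enzymes in the pancreas. Its closest relative is Nr5a1, which marks neurons of the ventromedial nucleus of the hypothalamus. Nfya, Nfyb and Nfyc encode the subunits of NF-Y, the factor that binds the CCAAT box of many promoters. NF-YB and NF-YC pair through histone folds, and NF-YA joins the pair and makes the contacts with the CCAAT letters. A complete complex needs all of them, and NF-Y is present in most cell types.

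The 4 genes lie on different chromosomes, each on the minus strand (GRCm38 coordinates, GENCODE, by Ensembl gene). Nr5a2 (ENSMUSG00000026398) spans chr1:136842571-136960448 and Nfya (ENSMUSG00000023994) spans chr17:48386885-48409906. Nfyb (ENSMUSG00000020248) spans chr10:82748701-82764144 and Nfyc (ENSMUSG00000032897) spans chr4:120757438-120831572. Nfyc overlaps the microRNA genes Mir30c-1 and Mir30e on its own strand and Mir30f on the opposite strand, none of which is in the tables. The other members overlap no annotated gene.

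Because the CCAAT box is the sequence that NF-Y reads, 1 promoter of each member is shown, the one with the most CCAAT boxes where a gene has several. Each runs 5′ to 3′ from 250 bases before the transcription start to 50 bases after it (RefSeq, GRCm38.p6, minus strand). Capitals mark CCAAT or its reverse complement ATTGG.
Nr5a2, promoter 2 at chr1:136953581-136953880: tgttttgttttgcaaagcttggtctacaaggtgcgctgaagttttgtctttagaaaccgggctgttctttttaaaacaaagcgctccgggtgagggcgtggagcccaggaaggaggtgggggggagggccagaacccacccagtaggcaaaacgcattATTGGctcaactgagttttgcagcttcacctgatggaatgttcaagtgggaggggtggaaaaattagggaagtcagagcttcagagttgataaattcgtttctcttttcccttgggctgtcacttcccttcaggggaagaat
Nfya, promoter 3 at chr17:48400531-48400830: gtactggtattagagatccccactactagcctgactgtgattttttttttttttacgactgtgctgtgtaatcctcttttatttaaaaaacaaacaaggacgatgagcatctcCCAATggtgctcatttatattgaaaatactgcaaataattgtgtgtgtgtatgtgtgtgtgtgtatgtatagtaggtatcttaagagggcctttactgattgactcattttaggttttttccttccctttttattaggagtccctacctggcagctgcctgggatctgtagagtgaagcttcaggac
Nfyb, promoter 1 at chr10:82764092-82764391: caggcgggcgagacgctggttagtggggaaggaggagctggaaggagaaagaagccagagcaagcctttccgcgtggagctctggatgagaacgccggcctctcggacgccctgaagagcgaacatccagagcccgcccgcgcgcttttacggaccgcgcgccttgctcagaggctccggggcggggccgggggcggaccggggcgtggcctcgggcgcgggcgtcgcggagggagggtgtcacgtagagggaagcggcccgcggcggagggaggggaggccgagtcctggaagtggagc
Nfyc, promoter 2 at chr4:120825160-120825459: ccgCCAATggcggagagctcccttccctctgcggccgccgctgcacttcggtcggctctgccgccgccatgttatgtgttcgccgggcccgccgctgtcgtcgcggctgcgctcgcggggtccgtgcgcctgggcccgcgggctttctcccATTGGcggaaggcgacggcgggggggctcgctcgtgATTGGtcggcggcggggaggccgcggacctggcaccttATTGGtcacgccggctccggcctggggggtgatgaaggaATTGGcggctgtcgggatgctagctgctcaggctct

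On either strand, CCAAT occurred 5 times in promoter 2 of Nfyc, at positions -247, -99, -63, -25 and 14 relative to the start. It occurred 3 times in promoter 3 of Nfyc and was not found in its promoter 1. Promoter 2 of Nr5a2 held 1 match at -92 and promoter 3 of Nfya held 1 at -137. The only listed promoter of Nfyb held none, nor did promoter 1 of Nr5a2 or promoters 1 and 2 of Nfya. Among all 32851 promoters of the same length, 37.4% held at least 1 CCAAT and 1.06% held 4 or more. The octamers CAAGGTCA and CAAGGCCA, which receptors of the Nr5a family bind, were searched on both strands as well. They were in none of the members' 9 promoters and in 3.92% of all promoters. These counts describe letters in a window and not binding.

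Before the comparisons, the libraries were checked for depth and for cell type. Scaled counts summed to 8435016 to 9279227 per library in the table of 3 groups and to 8783427 to 9447616 in the MINO table. All 12 listed hypothalamic markers were measured, and no measured marker of the 13 cell type and region lists was at 0 in every library. The library of OLZ+MINO mouse 48 stood apart. Its summed hypothalamic markers were 1033, against 4013 to 10092 in the other libraries of the table. Its summed thalamic markers were 9771, against 1850 to 4280 in the others. OLZ+MINO mouse 40 and CTRL mouse 11 were like it in part. Mouse 40 had the next lowest hypothalamic sum, 4013, and CTRL mouse 11 the next highest thalamic sum, 4280. Summed oligodendrocyte markers were 42324 in mouse 48, 41563 in mouse 40 and 44018 in CTRL mouse 11. In the other libraries of that table they were 19516 to 29766. No OLZ library had such an oligodendrocyte sum. Some results are also given without the library of mouse 48. Subunit ratios, levels per kilobase, marker sums and correlations are given only with it. Differences were tested with limma on log2(scaled count + 1), and a gene is said to rise or fall at a p adjusted over all genes of its table under 0.3.

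**Figure D1:**
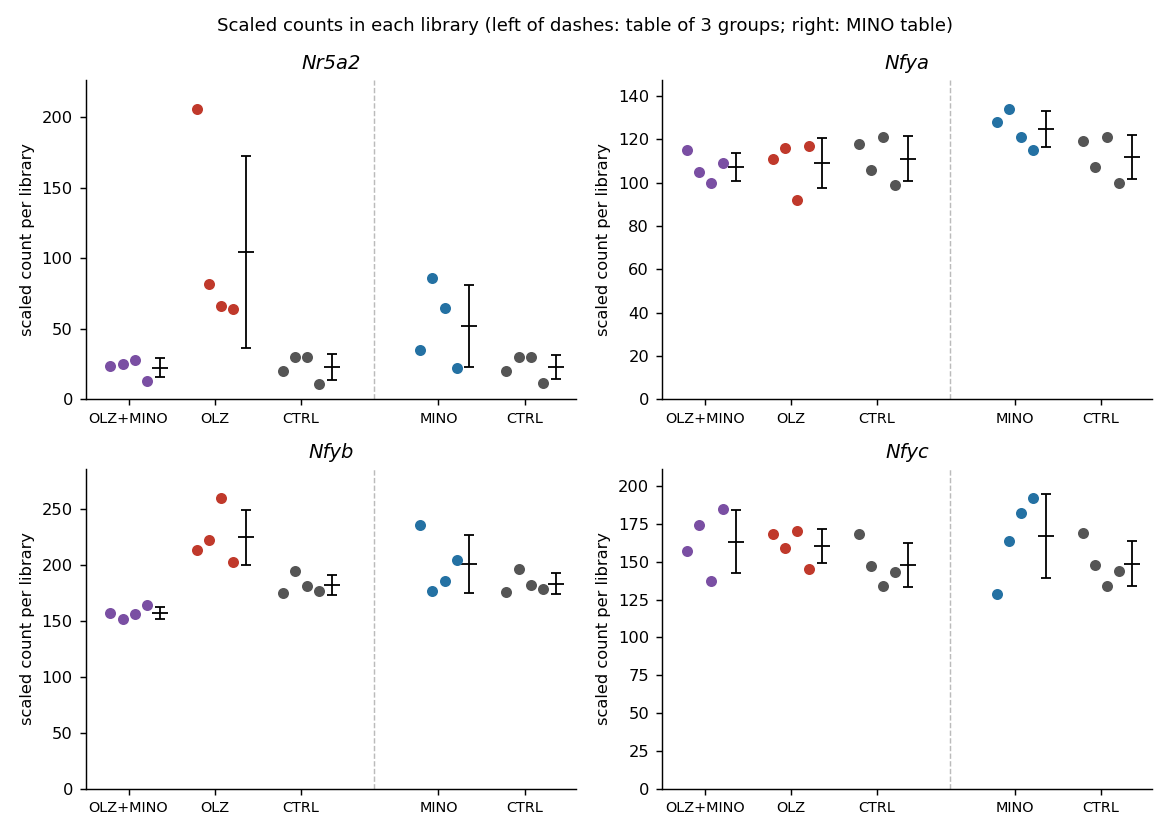
Scaled counts of Nr5a2, Nfya, Nfyb and Nfyc in each library. Each point is 1 mouse, the horizontal tick and bar beside each group give its mean and SD (n = 4), and the dashed line separates the tables. Nr5a2 was at 64 to 206 in OLZ and at no more than 30 in CTRL, while Nfya stayed between 92 and 134 in all groups.

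Nr5a2 had the lowest scaled counts of the members in OLZ+MINO and CTRL and was the only one with a several-fold difference between groups. It was at 24, 25, 28 and 13 in OLZ+MINO mice 37, 40, 47 and 48. They were 206, 82, 66 and 64 in OLZ mice 13, 14, 17 and 19. In CTRL mice 3, 4, 5 and 11 they were 20, 30, 30 and 11. Every OLZ library lay above every OLZ+MINO and CTRL library, and mouse 13 lay far above the other OLZ mice. The OLZ+MINO and CTRL ranges overlapped over most of their length.

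The mean of Nr5a2 was 22.5 ± 6.56 in OLZ+MINO, 104.5 ± 68.1 in OLZ and 22.8 ± 9.14 in CTRL (SD, n = 4 each). Between OLZ and CTRL the log2 fold change was 2.07 (SE 0.41), between OLZ+MINO and OLZ -2.04 (0.41) and between OLZ+MINO and CTRL 0.03 (0.41), where SE is the standard error. These contrasts chose the gene and share libraries, so that the opposite signs of the first and second are no separate observations. Groups without overlap occurred in 3.64% of all genes with OLZ above CTRL and in 4.2% of genes with OLZ+MINO below OLZ. Without OLZ mouse 13 the changes were 1.68 and -1.65, and without OLZ+MINO mouse 48 the second was -1.81 and the OLZ+MINO against CTRL value was 0.26. The spread of Nr5a2 within groups was wide. In 89.5% of genes of that table the pooled SD on the log2 scale was smaller than the 0.65 of Nr5a2, against a median of 0.23.

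The MINO libraries played no part in the choice of Nr5a2, although the CTRL libraries they are set against did. Nr5a2 had scaled counts of 35, 86, 65 and 22 in MINO mice 26, 31, 35 and 36, and 20, 30, 30 and 12 in CTRL mice 3, 4, 5 and 11. MINO mice 31 and 35 were above every CTRL mouse, mouse 26 was just above the CTRL range and mouse 36 was inside it, so that the groups overlapped. The mean was 52.0 ± 28.9 in MINO and 23.0 ± 8.72 in CTRL (SD, n = 4 each). MINO exceeded CTRL by 1.04 on the log2 scale (SE 0.43, 95% interval 0.11 to 1.98), with an unadjusted p of 0.032 and an adjusted p of 0.768 from limma. Nr5a2 was thus not called. No gene of the 16005 was called in this comparison (0%), while 1026 genes (6.41%) had an unadjusted p under 0.05. Leaving out 1 library at a time gave 0.75 to 1.39, lowest without MINO mouse 31.

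Markers of several cell types differed between the same groups as Nr5a2, and several lists did so in the same direction. In that direction the most called genes were among the tanycyte and arcuate neuron markers. Tanycytes are glia of the ventricle wall near the median eminence, and arcuate neurons lie beside them. Of 16 listed tanycyte markers, 15 were measured, and 11 of these rose in OLZ against CTRL, where 3.64% of all genes were called, 1.82% as higher and 1.82% as lower. An equal number, 11 of 15, fell in OLZ+MINO against OLZ, where 12.4% were called, 5.99% as higher and 6.36% as lower. Summed over the list, tanycyte markers were at 1770 to 2184 in OLZ+MINO, 3478 to 5498 in OLZ and 1716 to 2278 in CTRL. Arcuate markers were at 438 to 1138 in OLZ+MINO, 2155 to 3179 in OLZ and 539 to 1667 in CTRL, and of the 9 measured 6 rose and 8 fell in those comparisons. The lists were chosen with earlier results of these data known, so that these counts are a description. The part of the tanycyte and arcuate markers in the difference of Nr5a2 was not tested. In a bulk sample, fewer cells of a type and less RNA per cell cannot be told apart.

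The counts of called markers depended on single libraries. Without OLZ mouse 13, only 1 of 15 tanycyte markers and 0 of 9 arcuate markers rose in OLZ against CTRL, while 14 and 9 were still higher. Without CTRL mouse 3, CTRL mouse 11 or OLZ mouse 14, 4 tanycyte and 2 arcuate markers rose, and without OLZ mouse 19, 5 and 4 did. Without OLZ+MINO mouse 48, 13 and 9 rose. For OLZ+MINO against OLZ, 8 tanycyte and 5 arcuate markers fell without OLZ mouse 13. Without OLZ+MINO mouse 48 the counts were 10 and 8. The tanycyte markers at the lowest levels were close to 0 in some libraries, such as Rax, at 0 in OLZ+MINO mice 40 and 48.

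Markers of other cells and regions differed between these groups as well. Hypothalamic markers were higher in OLZ than in CTRL for 7 of 12, none called. In OLZ+MINO they were lower than in OLZ for 9 of 12, of which 3 fell. Against CTRL they were lower in OLZ+MINO for 12 of 12, none called. Ventromedial markers were higher in OLZ than in CTRL for 4 of 6, none called. They were lower in OLZ+MINO than in OLZ for 4 of 6, 1 of which fell. Pars tuberalis and pituitary markers were higher in OLZ than in CTRL for 5 of 6 measured, of which 2 rose. In OLZ+MINO they were lower than in OLZ for 4 of 6, of which 2 fell. Meningeal and fibroblast markers were higher in OLZ than in CTRL for 7 of 8 and lower in OLZ+MINO than in OLZ for 7 of 8, with 0 called in either. Oligodendrocyte markers were lower in OLZ than in CTRL for 8 of 8 genes, none called, and higher in OLZ+MINO than in OLZ for 8 of 8, of which 4 rose. Thalamic markers were lower in OLZ than in CTRL for 6 of 6, 1 of which fell, and higher in OLZ+MINO than in OLZ for 6 of 6, 1 of which rose. General neuronal markers were lower in OLZ than in CTRL for 7 of 8, none called, and 4 of 8 rose in OLZ+MINO against OLZ. Microglial markers were higher in OLZ than in CTRL for 6 of 7, none called, and lower in OLZ+MINO than in OLZ for 7 of 7, of which 3 fell. Without OLZ mouse 13, 0 oligodendrocyte, neuronal or microglial markers were called in OLZ+MINO against OLZ. Without OLZ+MINO mouse 40 or 48, 0 oligodendrocyte, 1 neuronal and 1 microglial marker were called, without OLZ mouse 14 0 oligodendrocyte and 2 neuronal markers were, and without OLZ+MINO mouse 37 or 47 5 or 4 thalamic markers rose. The single thalamic call in OLZ against CTRL was lost without CTRL mouse 3 or 11 or OLZ mouse 13, 14 or 19. The part of these markers in the difference of Nr5a2 was not tested either.

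**Figure D2:**
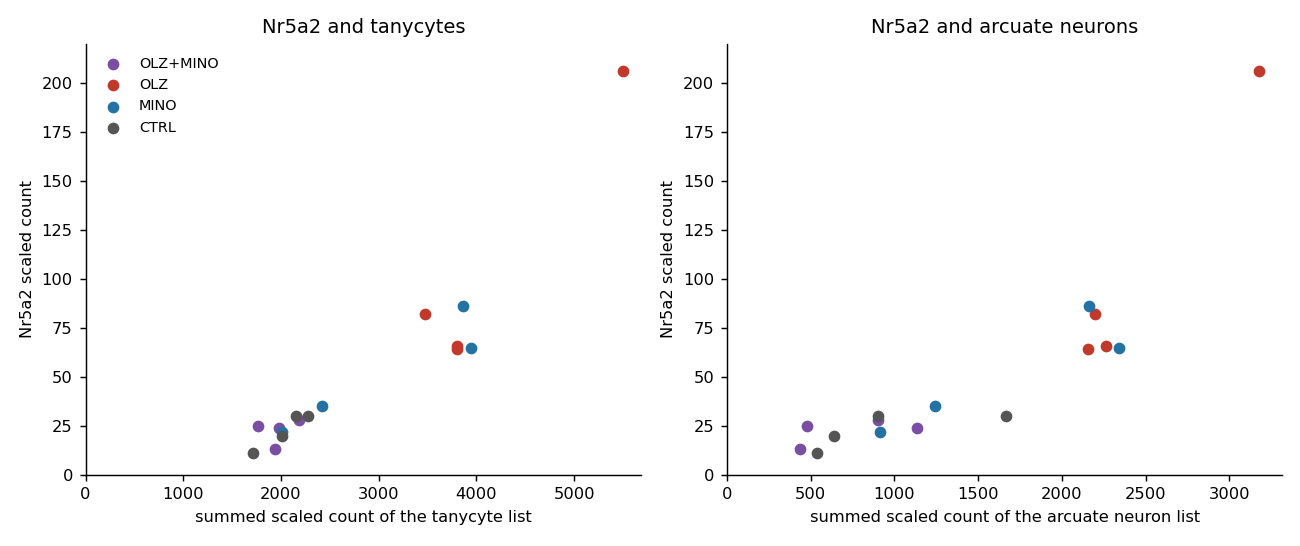
Scaled count of Nr5a2 against the summed scaled counts of the tanycyte list (left) and of the arcuate neuron list (right), 1 point per mouse. MINO values come from the separately scaled table. OLZ mouse 13, at 206, has the highest sums of both lists in its table, and MINO mice 31 and 35, at 86 and 65, have the highest in theirs.

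Within groups, the order of mice for Nr5a2 and for these markers was the same only in part. OLZ mouse 13, the highest for Nr5a2, had the highest tanycyte sum, 5498, against 3478 to 3799 in the other OLZ mice. OLZ mouse 14, second in its group for Nr5a2, had the lowest of these sums, 3478. OLZ+MINO mouse 37 had the highest arcuate sum of its group, 1138, with less Nr5a2 than mice 40 and 47. MINO mice 31 and 35 had tanycyte sums of 3860 and 3942, while mice 26 and 36 had 2422 and 2006. In CTRL the MINO table gave 1727 to 2294. Arcuate sums were 2160 and 2339 in MINO mice 31 and 35, and 1242 and 917 in mice 26 and 36, against 544 to 1686 in CTRL. In MINO against CTRL, 14 of 15 tanycyte markers and 10 of 10 arcuate markers were higher, and none was called.

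Expressed for each 1000 scaled counts of the tanycyte list, Nr5a2 was at 12.1, 14.1, 12.8 and 6.71 in OLZ+MINO mice 37, 40, 47 and 48. It was at 37.5, 23.6, 17.4 and 16.9 in OLZ mice 13, 14, 17 and 19, and at 9.97, 13.2, 13.9 and 6.41 in CTRL mice 3, 4, 5 and 11. On this scale every OLZ library was above every OLZ+MINO and CTRL library, by a smaller margin. A sum is weighted towards the most abundant markers, and single markers differed unevenly. Over the 15 measured tanycyte markers the log2 fold change in OLZ against CTRL ran from -0.12 to 2.72, with a median of 1.21. The ratio thus depends on the markers used, and it does not give the level of Nr5a2 per tanycyte. In the MINO table the ratio was 14.5, 22.3, 16.5 and 11.0 in MINO mice 26, 31, 35 and 36 and 9.91, 13.1, 13.9 and 6.95 in CTRL. Relative to the arcuate list, the groups overlapped, with 21.1 to 52.1 in OLZ+MINO, 29.1 to 64.8 in OLZ and 18.0 to 33.2 in CTRL. These ratios are a description and were not tested.

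Nr5a1, the relative of Nr5a2 that marks the ventromedial nucleus, varied more than 10-fold between mice of 1 group. It was at 109, 9, 128 and 9 in OLZ+MINO mice 37, 40, 47 and 48. In OLZ mice 13, 14, 17 and 19 they were 135, 177, 106 and 112, and in CTRL mice 3, 4, 5 and 11 they were 49, 142, 36 and 4. All OLZ mice were high, while each of the other groups held mice at both extremes. Nr5a1 was not called, its log2 fold change being 1.95 between OLZ and CTRL (SE 0.93, limma adjusted p = 0.451) and -1.92 between OLZ+MINO and OLZ (adjusted p = 0.353). The first passed without CTRL mouse 4 (adjusted p = 0.297), and the second passed without CTRL mouse 11 (0.247), OLZ+MINO mouse 37 (0.196) or OLZ+MINO mouse 47 (0.193). Between MINO and CTRL it was 1.11 (adjusted p = 0.845). Summed ventromedial markers, a list of 6 that includes Nr5a1, overlapped between the groups, at 1164 to 1664 in OLZ+MINO, 1284 to 1655 in OLZ and 1178 to 1583 in CTRL.

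Of 6 coactivators of Nr5a2, among them Ppargc1a and Ctnnb1, none was called in any comparison, and with 12.4% of all genes called at most, in OLZ+MINO against OLZ, 0 of 6 is no result about them. Nr0b1, a corepressor of this receptor family, was listed only in the MINO table and had 12, 18, 23 and 6 in MINO against 7, 10, 2 and 5 in CTRL, an uncalled log2 fold change of 1.18 (adjusted p = 0.773 from limma).

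Of 19 listed genes known as Nr5a2 targets in liver, gonad and other tissues, 9 were in the table of 3 groups. None of the 9 was called in OLZ against CTRL, near the 3.64% of all genes, and the median log2 fold change was 0.07 against 0.00 over all genes. Ccnd1, a cyclin, fell by 0.30 on the log2 scale in OLZ+MINO against OLZ (adjusted p = 0.294), a call lost in 9 of 12 fits without 1 library (adjusted p up to 0.618, without OLZ+MINO mouse 48).

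**Figure D3:**
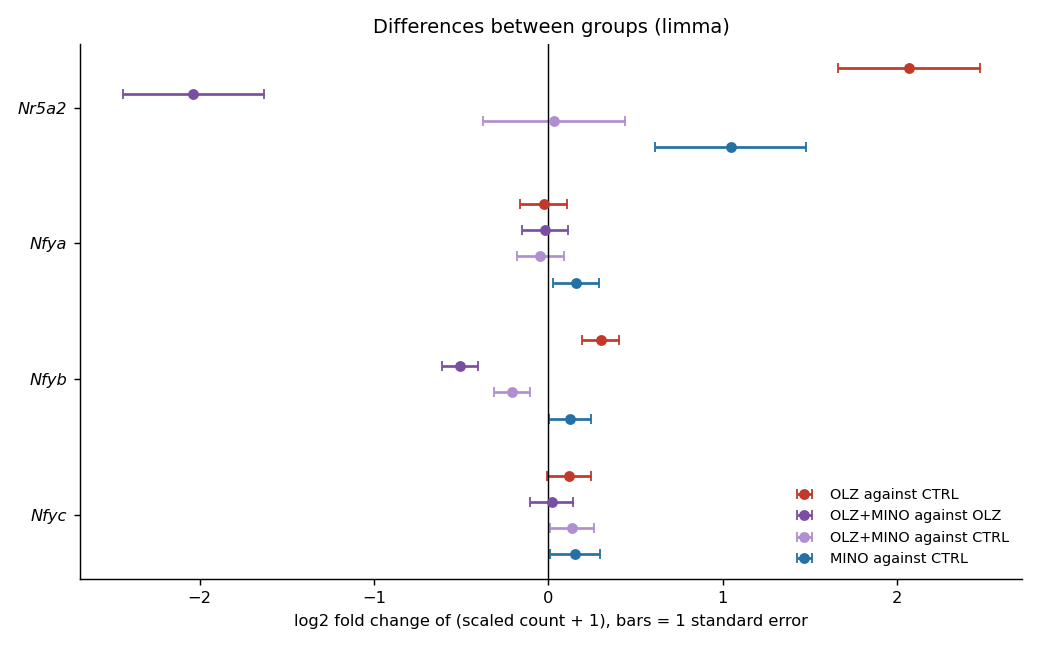
Log2 fold change of each member in the 4 comparisons, with bars of 1 standard error from limma. Nr5a2 lies at 2.07, -2.04, 0.03 and 1.04, Nfyb at 0.30, -0.51, -0.21 and 0.12, and each value of Nfya and Nfyc lies between -0.05 and 0.16.

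Nfyb separated all 3 groups of the first table. Its differences to OLZ were much smaller than those of Nr5a2, and its spread within groups was small. Its scaled counts were 157, 152, 156 and 164 in OLZ+MINO mice 37, 40, 47 and 48. In OLZ mice 13, 14, 17 and 19 they were 214, 223, 260 and 203, and in CTRL mice 3, 4, 5 and 11 they were 175, 195, 181 and 177. The 3 ranges did not overlap, with OLZ highest, CTRL in the middle and OLZ+MINO lowest. The highest OLZ library for Nfyb was mouse 17, not mouse 13.

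The mean of Nfyb was 157.2 ± 4.99 in OLZ+MINO, 225.0 ± 24.7 in OLZ and 182.0 ± 9.02 in CTRL (SD, n = 4 each). Between OLZ and CTRL the log2 fold change was 0.30 (SE 0.10), between OLZ+MINO and OLZ -0.51 (0.10) and between OLZ+MINO and CTRL -0.21 (0.10). Nfyb in OLZ+MINO thus lay below the level in CTRL as well as in OLZ. Groups without overlap occurred in 3.64%, 4.2% and 1.47% of all genes for these directions. The study chose Nfyb on these libraries, and no test is given. Without OLZ mouse 17 the first 2 changes were 0.23 and -0.44, and without OLZ+MINO mouse 48 the values of OLZ+MINO were -0.53 against OLZ and -0.23 against CTRL. Only 9.14% of genes had a smaller pooled SD than the 0.10 of Nfyb.

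In MINO, which played no part in the choice of Nfyb, the gene did not pass the test. Scaled counts of Nfyb were 236, 177, 186 and 205 in MINO mice 26, 31, 35 and 36 and 176, 197, 182 and 179 in CTRL. Mouse 26 was the highest, and mice 31 and 35, the highest MINO mice for Nr5a2, were inside the CTRL range. The log2 fold change was 0.12 (standard error 0.12, 95% interval -0.13 to 0.38, adjusted p = 0.859 from limma). The mean was 201 ± 26.1 in MINO and 183.5 ± 9.33 in CTRL (SD, n = 4 each). Whether the MINO change differs from the OLZ+MINO change was not tested, since the tables were scaled separately.

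Nfya, the subunit that contacts the CCAAT box, did not pass the test in any comparison. Its scaled counts were 115, 105, 100 and 109 in OLZ+MINO, 111, 116, 92 and 117 in OLZ and 118, 106, 121 and 99 in CTRL, in the order of mouse numbers. The groups overlapped, and OLZ mouse 17, the highest for Nfyb, was the lowest for Nfya. Between OLZ and CTRL the log2 fold change was -0.03 (95% interval -0.31 to 0.26, adjusted p = 0.961 from limma). For OLZ+MINO against OLZ it was -0.02 (-0.30 to 0.27, adjusted p = 0.967), and for OLZ+MINO against CTRL it was -0.05 (-0.33 to 0.24, adjusted p = 0.961). The first 2 of these changed sign when single libraries were left out. In the MINO table Nfya was at 128, 134, 121 and 115 in MINO and at 119, 107, 121 and 100 in CTRL, with a log2 fold change of 0.16 (-0.13 to 0.45, adjusted p = 0.837).

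Nfyc, the histone-fold partner of NF-YB, did not pass the test either. Its scaled counts were 157, 174, 137 and 185 in OLZ+MINO, 168, 159, 170 and 145 in OLZ and 168, 147, 134 and 143 in CTRL. All 3 ranges overlapped. Between OLZ and CTRL the log2 fold change was 0.12 (95% interval -0.15 to 0.39, adjusted p = 0.759 from limma). It was 0.02 for OLZ+MINO against OLZ (-0.25 to 0.28, adjusted p = 0.966) and 0.14 for OLZ+MINO against CTRL (-0.13 to 0.40, adjusted p = 0.857). Without OLZ+MINO mouse 48, the highest library of its group, these last 2 were -0.04 and 0.07. In the MINO table Nfyc was at 129, 164, 182 and 192 in MINO and at 169, 148, 134 and 144 in CTRL, with a log2 fold change of 0.15 (-0.16 to 0.47, adjusted p = 0.857). MINO mouse 26 was the highest for Nfyb and the lowest for Nfyc.

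**Figure D4:**
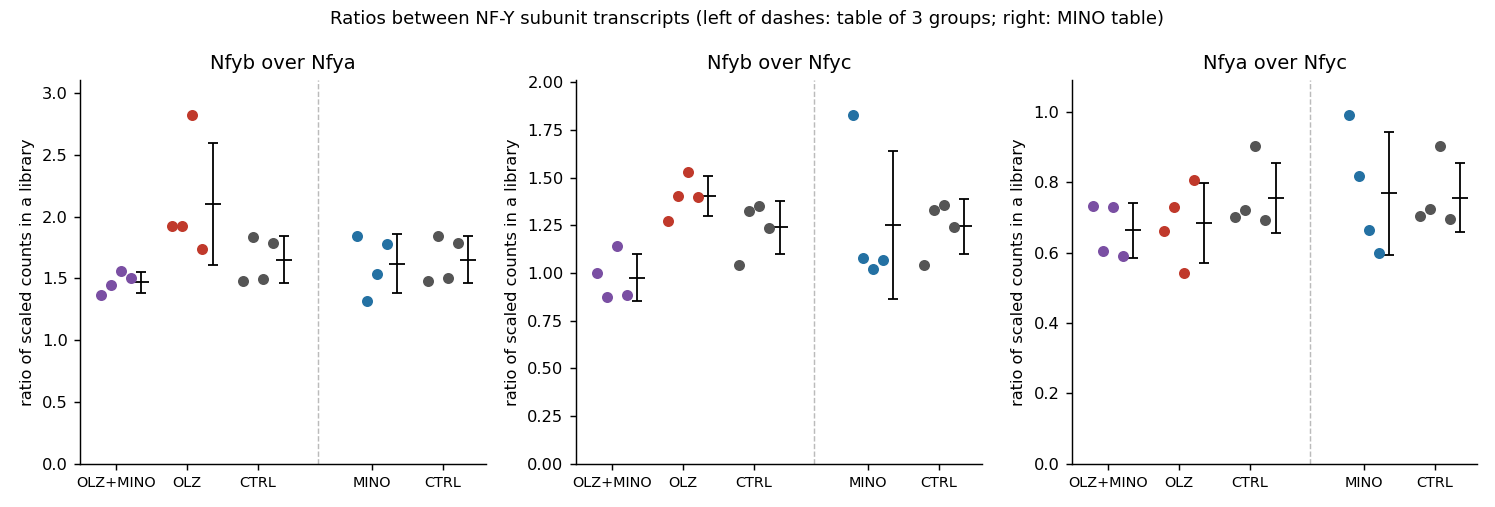
Ratios between scaled counts of NF-Y subunits within each library, with group means and SDs (n = 4). Nfyb over Nfya was 1.37 to 1.56 in OLZ+MINO and 1.74 to 2.83 in OLZ, while Nfya over Nfyc overlapped between all groups.

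The balance between the subunit transcripts was described by their ratio within each library, which does not depend on the scaling of the library. Nfyb over Nfya was 1.47 ± 0.083 in OLZ+MINO, 2.10 ± 0.49 in OLZ and 1.65 ± 0.19 in CTRL (SD, n = 4 each). It ranged over 1.37 to 1.56 in OLZ+MINO, 1.74 to 2.83 in OLZ and 1.48 to 1.84 in CTRL, so that OLZ overlapped CTRL but not OLZ+MINO. Nfyb over Nfyc was 0.97 ± 0.12 in OLZ+MINO, 1.40 ± 0.10 in OLZ and 1.24 ± 0.14 in CTRL, with ranges of 0.874 to 1.14 in OLZ+MINO, 1.27 to 1.53 in OLZ and 1.04 to 1.35 in CTRL. Nfya over Nfyc, the pair that took no part in the choice, was 0.664 ± 0.078 in OLZ+MINO, 0.685 ± 0.11 in OLZ and 0.755 ± 0.0996 in CTRL. In the MINO table, Nfyb over Nfya was 1.62 ± 0.24 in MINO and 1.65 ± 0.19 in CTRL, and Nfyb over Nfyc was 1.25 ± 0.39 in MINO and 1.24 ± 0.14 in CTRL. The wide spread of the last MINO value came from mouse 26, at 1.83, against 1.02 to 1.08 in the other MINO mice.

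Levels of different genes were compared after division by the length of all annotated exons, 5899 bases for Nr5a2, 7315 for Nfya, 5068 for Nfyb and 2942 for Nfyc. On this scale of scaled counts per kilobase, Nfyc was highest, at 55.5 ± 7.12 in OLZ+MINO, 54.6 ± 3.87 in OLZ and 50.3 ± 4.89 in CTRL (SD, n = 4 each). Nfyb followed at 31.0 ± 0.985 per kilobase in OLZ+MINO, 44.4 ± 4.88 in OLZ and 35.9 ± 1.78 in CTRL. The ranges of Nfyc and Nfyb overlapped in OLZ, where Nfyb reached 51.3 and Nfyc began at 49.3, and were apart in OLZ+MINO and CTRL. Nfya was at 14.7 ± 0.867 in OLZ+MINO, 14.9 ± 1.59 in OLZ and 15.2 ± 1.41 in CTRL. Nr5a2 was lowest in OLZ+MINO and CTRL, at 3.81 ± 1.11 and 3.86 ± 1.55, and at 17.7 ± 11.6 in OLZ it overlapped Nfya. In MINO the levels per kilobase were 56.7 ± 9.42 for Nfyc, 39.7 ± 5.15 for Nfyb, 17.0 ± 1.13 for Nfya and 8.82 ± 4.91 for Nr5a2. The exon union counts every isoform, so that these levels depend on which isoforms were present.

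The members differed in which other genes followed them over the 12 libraries of the first table. Among 12781 genes with a mean of at least 20 and a named symbol, the genes most like Nr5a2 were Klhdc8b, Col23a1, Efnb1, Tbx3 and Crabp1, with Pearson r of 0.94 to 0.96 on the log2 scale. Col23a1 is one of the listed tanycyte markers and Tbx3 one of the arcuate markers. Col23a1 was at 99, 56, 129 and 29 in OLZ+MINO, 907, 406, 480 and 532 in OLZ and 87, 150, 168 and 35 in CTRL, and again highest in OLZ mouse 13. It was at 469 and 526 in MINO mice 31 and 35 and at 208 and 108 in mice 26 and 36. After group means were taken off, the genes most like Nr5a2 were Nucb1, Fbxo4, Rpl19, Col5a2 and Marcksl1 (r of 0.89 to 0.94), none of them from the first set.

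The genes most like Nfyb were Mtpn, Hmgb1, Fbxl5, Zfp449 and Rpl14, with r of 0.87 to 0.92. Hmgb1, a chromatin protein, was at 1000, 943, 927 and 958 in OLZ+MINO, 1156, 1213, 1268 and 1176 in OLZ and 1117, 1092, 956 and 1013 in CTRL. As for Nfyb, its highest OLZ library was mouse 17. Cdk5rap2 and Hcn3 were most like Nfya (r of 0.85 and 0.83), and Mrpl23 was most like Nfyc (0.90). Between the members themselves, Nr5a2 and Nfyb had r of 0.70 over the 12 libraries and -0.13 after group means were taken off. For Nfya and Nfyb the values were -0.18 and -0.60, and for Nfyb and Nfyc 0.08 and 0.26. These coefficients are descriptions over 12 libraries that share their groups and their dissection.

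**Figure D5:**
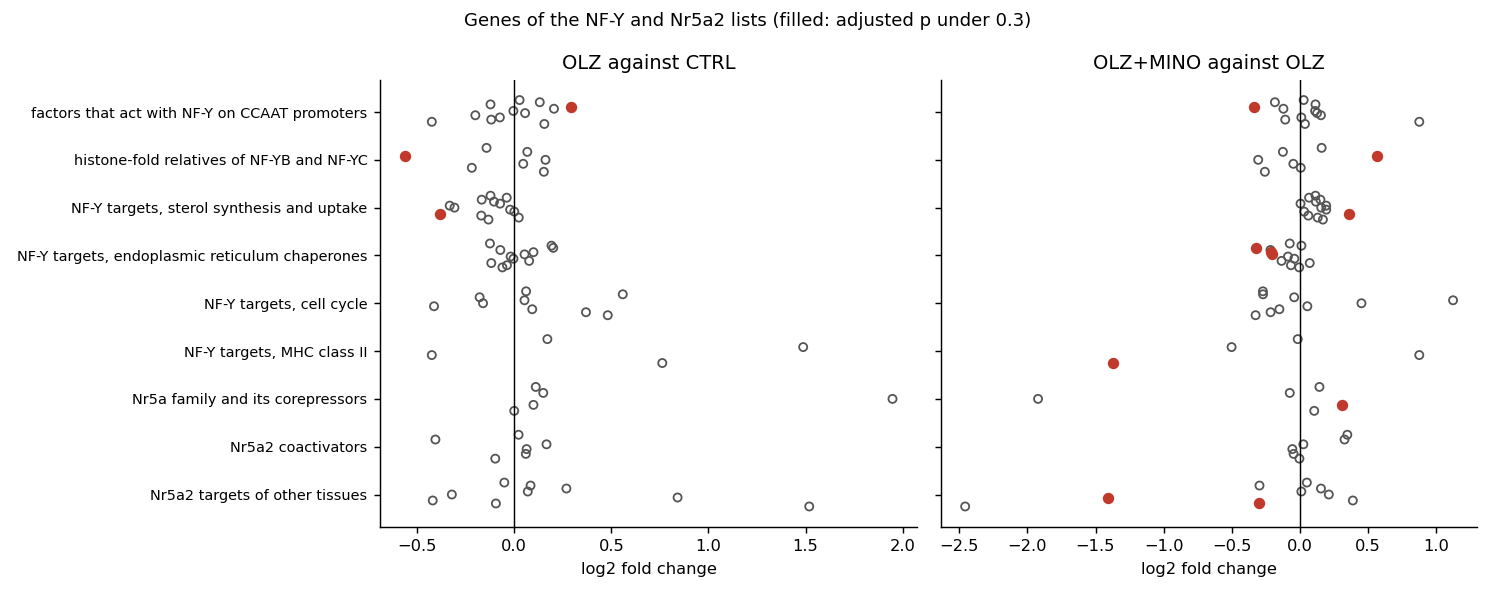
Log2 fold change of each measured gene in the lists around NF-Y and Nr5a2 for OLZ against CTRL (left) and OLZ+MINO against OLZ (right). Filled points passed an adjusted p under 0.3. Most genes lie near 0, with 3 called on the left (Srebf1, Pole4 and Fdps).

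Factors that act beside NF-Y on CCAAT promoters were all measured, 12 of 12, and only Srebf1 was called. Of all genes 3.64% were called in OLZ against CTRL and 12.4% in OLZ+MINO against OLZ. A count of 1 of 12 is thus no result about the list. Srebf1 encodes a sterol regulatory element binding protein that controls lipid synthesis genes together with NF-Y. Its scaled counts were 612, 626, 661 and 606 in OLZ+MINO, 848, 775, 756 and 783 in OLZ and 571, 688, 692 and 634 in CTRL. OLZ was above OLZ+MINO and CTRL without overlap, as were 3.64% of all genes for OLZ above CTRL and 4.2% for OLZ+MINO below OLZ. Srebf1 rose by 0.29 on the log2 scale in OLZ against CTRL (SE 0.077, limma adjusted p = 0.196) and fell in OLZ+MINO against OLZ, with -0.34 (adjusted p = 0.0786). The rise was lost without CTRL mouse 3 or 11 or OLZ mouse 13, 14 or 19 (adjusted p up to 0.542), and the fall kept an adjusted p of at most 0.273 without any 1 library. In the MINO table it was at 783 and 881 in MINO mice 31 and 35, at 559 and 624 in mice 26 and 36 and at 575 to 695 in CTRL, and was not called (adjusted p = 0.886). The high MINO mice were again those high for Nr5a2 and tanycyte markers, whose part in this was not tested. Sp1 and Srebf2 were called in none of the comparisons. Srebf2 had a log2 fold change of -0.12 between OLZ and CTRL and 0.12 between OLZ+MINO and OLZ (limma adjusted p = 0.468), which passed only without OLZ+MINO mouse 37 (0.192).

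Of 7 genes with histone folds like those of NF-YB and NF-YC, only Pole4, a small subunit of DNA polymerase epsilon, was called. Of all genes 3.64% were called in OLZ against CTRL and 12.4% in OLZ+MINO against OLZ. A count of 1 of 7 is thus no result about the list. It was at 127, 164, 127 and 147 in OLZ+MINO, 71, 93, 119 and 102 in OLZ and 157, 172, 122 and 118 in CTRL. Pole4 fell by 0.56 on the log2 scale in OLZ against CTRL (SE 0.18, limma adjusted p = 0.254) and rose by 0.56 in OLZ+MINO against OLZ (adjusted p = 0.161). The OLZ and CTRL ranges overlapped at 118 to 119. The fall was lost without CTRL mouse 3, 4 or 11 or OLZ mouse 13, 14 or 19 (adjusted p up to 0.590), and the rise without OLZ mouse 13 or OLZ+MINO mouse 40 or 48 (up to 0.429). MINO mice had 84, 91, 85 and 123 against 157, 173, 122 and 119 in CTRL, a log2 fold change of -0.57 that was not called (adjusted p = 0.768).

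Genes of sterol synthesis and uptake, which NF-Y regulates together with the sterol regulatory element binding proteins, were mostly not called. In OLZ against CTRL 1 of 13 fell, where 1.82% of all genes did, and 11 of 13 were lower, with a median log2 fold change of -0.12 against 0.00 over all genes. In OLZ+MINO against OLZ 1 of 13 rose, where 5.99% of all genes did, and 13 of 13 were higher, with a median of 0.13. No test of the list was made. The called gene was Fdps, which encodes farnesyl diphosphate synthase. It was at 353, 382, 290 and 366 in OLZ+MINO, 286, 291, 287 and 220 in OLZ and 341, 336, 339 and 391 in CTRL. Its log2 fold changes were -0.38 (SE 0.11, limma adjusted p = 0.242) and 0.36 (adjusted p = 0.167). The first call was lost without CTRL mouse 3 or 11 or OLZ mouse 13, 14 or 19 (up to 0.526), and the second without OLZ mouse 13 or OLZ+MINO mouse 40 or 48 (up to 0.356). Without OLZ mouse 19, 9 of 13 were higher in the second comparison, and without OLZ+MINO mouse 48, 11 of 13 were.

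Chaperones of the endoplasmic reticulum, whose promoters carry CCAAT boxes in stress response elements, were not called in OLZ against CTRL, 0 of 12. With 3.64% of all genes called there, 0 of 12 is no result about them. In OLZ+MINO against OLZ 3 of 12 fell, where 6.36% of all genes did, and 10 of 12 were lower, with a median of -0.08. These were Pdia6 at -0.32, Hyou1 at -0.21 and Hspa5 at -0.20 (adjusted p = 0.191, 0.234 and 0.226 from limma). Hspa5, the abundant chaperone also called BiP, was at 3119, 2812, 3124 and 2610 in OLZ+MINO, 3605, 3287, 3451 and 3058 in OLZ and 3445, 3056, 3145 and 3260 in CTRL, so that the ranges overlapped. None of the 3 was called without OLZ mouse 13 (adjusted p = 0.508 for Hspa5), OLZ mouse 14 (0.339) or OLZ+MINO mouse 40 (0.402) or 48 (0.480), and without OLZ mouse 17 Pdia6 alone was called.

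Cell cycle genes with CCAAT promoters were called in no comparison, 0 of 9 measured in the first table and 0 of 7 in the MINO table. With 12.4% of all genes called at most, in OLZ+MINO against OLZ, these counts are no result about them. Of the MHC class II genes 4 of 7 were measured, and Cd74, the invariant chain, was at 7, 11, 14 and 11 in OLZ+MINO and at 66, 9, 13 and 82 in OLZ. Its fall in OLZ+MINO against OLZ, -1.37 (SE 0.59, limma adjusted p = 0.292), came from OLZ mice 13 and 19, without which it was -0.98 (adjusted p = 0.601) and -0.88 (0.516). It was lost in 8 of 12 fits without 1 library. No gene of these lists was called in OLZ+MINO against CTRL, where 0.025% of all genes were called, or in MINO against CTRL, where 0% were.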

How the data were processed

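RNA-seq values of hypothalamus from 16 mice were analysed, grouped by the sample labels and the treatments in the study's methods. The authors extracted total RNA with TRIzol, made TruSeq libraries, used Bowtie2 for alignment against mouse transcripts and RSEM for gene counts, and ran their own comparisons in limma. The submitters' processing notes name mm9. Versions, scaling, filters and strand setting were not given in the sources used here. What the authors deposited for each library is a scaled signal in whole numbers and not raw counts, since each CTRL library is larger in the MINO table than in the other, by 1.0048 to 1.00615 times. Deposited group means, fold changes and false discovery rates of the authors were not used.

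From these values, log2(value + 1) was fitted with limma 3.58.1 in R 4.3.3 (moderated by eBayes along an intensity trend, all genes of a table, no filter), the 3 groups in 1 fit and MINO and CTRL in another. P-values were adjusted over all genes by the method of Benjamini and Hochberg. The scripts were tested on simulated data. Each mouse is 1 library, so that p-values set a group difference against the spread between mice. That spread includes differences of dissection and library preparation. The depth of each library is known only through its scaled total, and a scaled count near 10 rests on few reads.

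The members and gene lists were chosen with earlier results of these data known. Named genes are the members, genes of the lists past the threshold (some results of these lists are not reported here), direct partners (Nr5a1, Nr0b1, Sp1, Srebf2) and the 5 genes most like each member by Pearson r, of which some are printed. Col23a1 was given with its values after they were seen, as were Rax and Hmgb1. Promoters are from RefSeq and coordinates from GENCODE, and neither entered a test. Alternatives were quantile normalization, scaling by the median of ratios, a pseudocount of 0.1, a mean of at least 50, no intensity trend, array quality weights, fits restricted to the compared groups, a threshold of 0.05 and each library left out in turn. For list genes and for 4 of the marker lists they were added after the data were seen.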

Additional observations from a re-analysis of the deposited data

Results flagged for a closer look

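Nr5a2 in OLZ mouse 13, at a scaled count of 206, lay apart from the other OLZ mice, at 64 to 82. Its gap to the next mouse was 0.873 of the range of the group on the scale of scaled counts, past Dixon's critical value for 4 samples, and 0.789 on the log2 scale, which is not past it. Chance exceeds that value in about 1 in 20 groups, and 20 groups were looked at, so that about 1 is expected. The CTRL libraries were counted in both tables, so that these groups are not all separate. These values also took part in the choice of the gene, and the gap is given as a description. The same mouse had the highest summed tanycyte markers, 5498, and arcuate markers, 3179, of its group. Their part in its Nr5a2 level was not tested.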

How the results depend on the processing

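Under the alternatives run, no tested member was called, and the members' log2 fold changes kept their sign except as given here. The number of genes called in OLZ against CTRL (582) was 193 without the intensity trend, 1558 with only the compared groups, 1652 with array quality weights and 2 at a threshold of 0.05. That in OLZ+MINO against OLZ (1974) was 1023 without the trend and 54 at 0.05. In OLZ+MINO against CTRL (4) it was 15 without the trend and 0 with only the compared groups, array quality weights or 0.05. Leaving out 1 library gave 2 (without OLZ mouse 13) to 1470 (without OLZ+MINO mouse 48), 187 (without OLZ mouse 13) to 2834 (without OLZ+MINO mouse 37), 0 to 4 and, for MINO against CTRL, 0 to 3. Array quality weights turned the sign of Nfya (0.0069) and Sp1 (0.0048) in OLZ against CTRL and of Nfyc in OLZ+MINO against OLZ (-0.011), and quantile normalization that of Sp1 in OLZ against CTRL (0.0032), of Srebf2 in MINO against CTRL (0.0039) and of Nr5a2 in OLZ+MINO against CTRL (-0.03). Without 1 library, ranges crossed 0 in OLZ against CTRL for Nfya (-0.081 to 0.051) and Sp1 (-0.062 to 0.073), in OLZ+MINO against OLZ for Nfya (-0.097 to 0.017) and Nfyc (-0.045 to 0.099), in OLZ+MINO against CTRL for Nr5a2 (-0.26 to 0.26), Srebf2 (-0.042 to 0.053) and Nr5a1 (-0.90 to 0.72), and in MINO against CTRL for Sp1 (-0.011 to 0.13) and Srebf2 (-0.071 to 3.3e-05). None of these differences was called, and the cause was not tested. Without the intensity trend the calls of Srebf1, Pole4 and Fdps in OLZ against CTRL and of Hspa5, Pdia6, Hyou1, Cd74 and Ccnd1 in OLZ+MINO against OLZ were lost. A mean of at least 50 removed Nr5a2 from both tables, so that it gave no value there, and a fit of only the compared groups is the same as the fit used for MINO. No paired analysis was possible because the groups share no mouse numbers.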
